A study of Mus musculus with 10 samples.

Results

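The 45 ribosome biogenesis genes described here encode factors that make and assemble ribosomes in the nucleolus, and they were taken by gene symbol from a table of 56691 mouse genes. All 45 were found. They were selected from the same contrast of genotypes in which they are described below, with higher values in knockout in view, so their differences between the groups are given as a description with no test of their own. RNA was sequenced from mouse esophageal epithelium in 10 libraries, 5 labelled wild type and 5 labelled knockout. The knockout mice carried p63CreERT2, a tamoxifen-inducible Cre named for the basal cell transcription factor p63, together with floxed Mst1 and Mst2-/- alleles, so Mst2 was absent throughout the animal and Mst1 was to be deleted where the Cre is active. Mst1 and Mst2 are the core kinases of the Hippo pathway, which restrains the co-activators Yap and Taz. Both groups received tamoxifen at 100 mg/kg, given 3 times at intervals of 2 weeks, and RNA was taken after around 8 weeks. The labels name no Cre or modified alleles for wild type, and give neither age nor genetic background, so effects of these cannot be told apart from loss of the kinases. Nothing in the labels says whether the libraries come from different animals, and the p-values below measure only the spread between these samples, which may be technical.

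As background, a ribosome begins as a long precursor RNA that RNA polymerase I copies from the ribosomal DNA. Small nucleolar RNAs in box C/D particles guide methylation of that precursor and those in box H/ACA particles guide conversion of uridine to pseudouridine, while large assemblies cut it and fold it with ribosomal proteins into a small and a large subunit. In stratified epithelia the dividing basal cells are the main users of this machinery. The transcription factor MYC and the kinase complex mTORC1 are well known regulators of it.

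Values are FPKM, fragments of a gene scaled by the length of its model and by the total of the library. The libraries held an estimated 13070000 to 16450000 fragments, and their log2 values correlated at 0.906 to 0.984 with each other. Stk3, the gene of Mst2, lay at 2.08 to 3.48 FPKM in wild type, against 0.05 to 0.25 FPKM in knockout, whereas Stk4, the gene of Mst1, lay at 16.96 to 22.73 and 12.22 to 17.38 FPKM. A level summed over the whole gene is no check of a deletion of single Stk4 exons. The squamous keratin Krt13 was at 33902 FPKM or more in every library, which fits the labelled tissue. The fibroblast markers Col1a1, Col1a2, Col3a1, Pdgfra and Pdgfrb reached at most 0.02 FPKM, endothelial markers summed to at most 0.15 FPKM and the leukocyte marker Ptprc reached at most 0.17 FPKM. The fibroblast list as a whole summed to 4.44 to 13.56 FPKM in wild type, against 0.07 to 1.13 FPKM in knockout, nearly all of it Dcn in the wild-type libraries. The immune list summed to 6.78 to 62 and 19.88 to 472.7 FPKM. Its largest members were S100a8, a protein of neutrophils that stressed keratinocytes also make, at 1.65 to 37.5 and 14.66 to 462.81 FPKM, and Cd74, a protein of antigen-presenting cells, at 4.33 to 28.32 and 3.96 to 14.2 FPKM. Cd74 was the larger of these in wild type 1, wild type 2 and wild type 5, and S100a8 in the other libraries. The part of these markers in the results below was not tested.

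Mean levels were higher in knockout for 44 of the 45 genes, and Noc2l was the exception. The knockout mean divided by the wild-type mean had a median of 1.37 over the 45 genes and ran from 0.958 to 1.6. On the log2(FPKM + 1) scale, which understates changes of low genes, the fold changes (knockout minus wild type) had a median of 0.41 and ran from -0.05 to 0.65. Over all 11386 tested genes, those reaching 1 FPKM in 5 or more libraries, the median was 0.06 and 6667 were positive. All 45 genes passed that filter, with mean levels from 2.53 FPKM for Wdr12 to 191 FPKM for Npm1 and a median of 16.1 FPKM, against 6.22 FPKM for all tested genes.

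In limma with Benjamini-Hochberg adjustment over all tested genes at a threshold of 0.05, 15 of the 45 genes were called higher and 0 lower, where the background was 7.9% of all tested genes higher and 4.96% lower. At an unadjusted p under 0.05 the counts were 33 and 0, where 2173 of the 11386 tested genes were higher and 1214 lower. The 15 were Ddx21, Fbl, Nop56, Nop10, Utp20, Heatr1, Nop14, Ltv1, Bop1, Wdr12, Nop2, Gnl3, Nifk, Ebna1bp2 and Npm1. In 7 of the 45 every knockout value lay above every wild-type value (Fbl, Nop10, Utp20, Heatr1, Ltv1, Wdr12 and Ebna1bp2), and in 0 below, where the background was 6.62% and 3.88%. Since the genes were chosen on this contrast, nothing is read from these counts.

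The number called rested on single libraries, as did the number over all tested genes. It was 3 without wild type 1, 6 without wild type 3, 25 without wild type 4, 2 without wild type 5, 3 without knockout 1, 7 without knockout 2, 6 without knockout 3, 23 without knockout 4 and 4 without knockout 5, and Fbl and Ebna1bp2 were the only 2 of the 15 that were called in each of the 10 leave-outs. Over all tested genes 900 were higher with all libraries. That count was 495 without wild type 1, 795 without wild type 3, 952 without wild type 4 and 436 without wild type 5. It was 538 without knockout 1, 674 without knockout 2, 572 without knockout 3, 858 without knockout 4 and 529 without knockout 5. The median fold change of the 45 genes moved much less, between 0.37 and 0.48. Quantile normalization gave 8 calls, no filter on low values 3 and sample quality weights 23. Over all tested genes these settings gave 685, 511 (of 27599 tested) and 1390 higher. Of all calls, 61.4% were higher in knockout in the values as deposited, 46.6% with median-ratio scaling and 47.9% with quantile normalization, while 44 of the 45 fold changes were positive under each of these scalings.

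**Figure D1:**
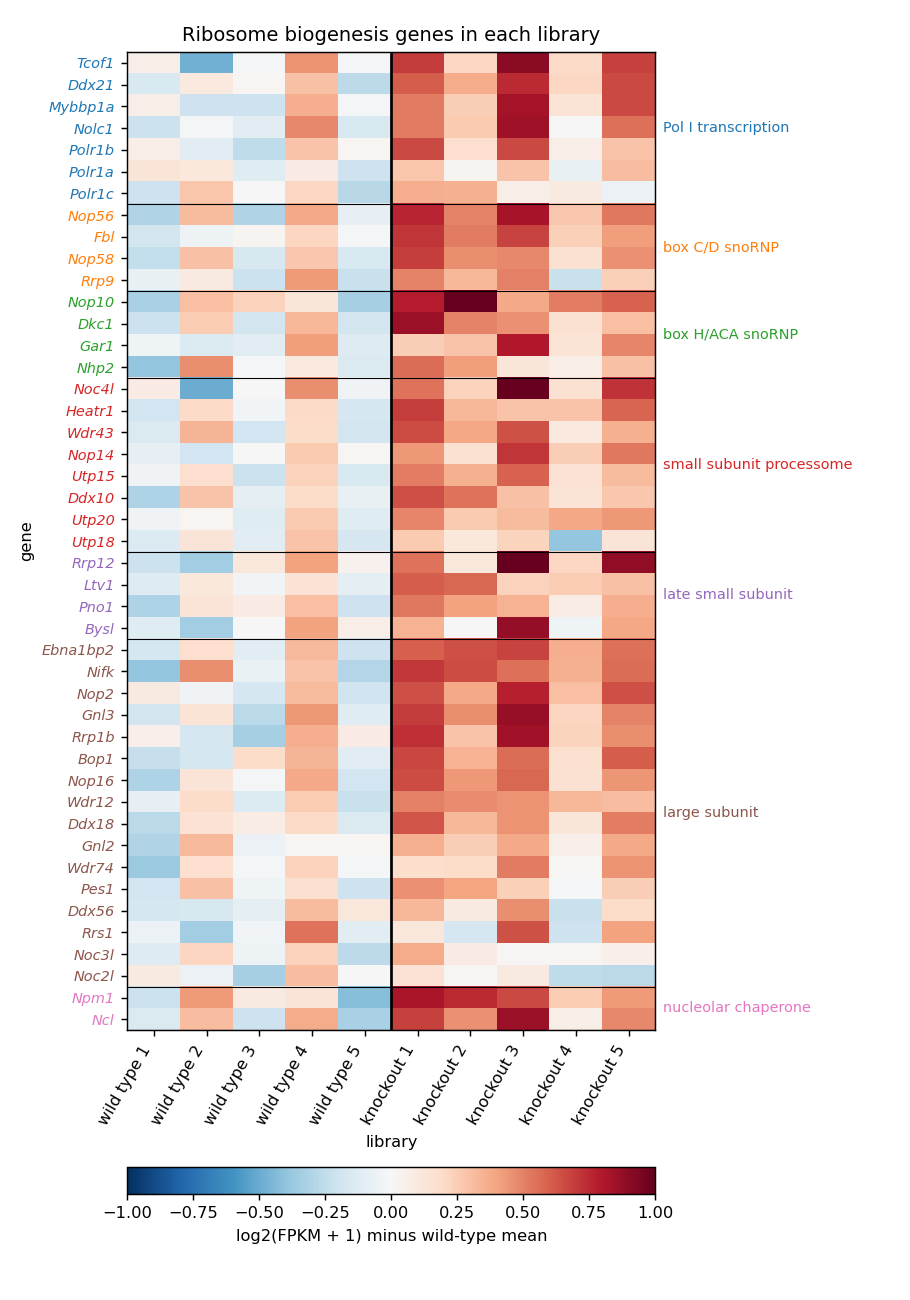
Level of each of the 45 genes (rows, grouped by role) in each of the 10 libraries (columns), as log2(FPKM + 1) minus the gene's wild-type mean. Knockout 1 and knockout 3 are the reddest columns, wild type 4 is the reddest wild-type column and knockout 4 the palest knockout column.

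Exons of Nop56, Dkc1, Nhp2, Heatr1 and Wdr43, and of 18 of the 45 in all, overlap another gene, and with the strand setting unknown reads of the pair cannot be told apart.

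The first role is transcription by RNA polymerase I and its nucleolar cofactors, with 7 genes. Fold changes were positive in all 7, with a median of 0.44, and Ddx21 was the 1 called. Ddx21, a DEAD-box RNA helicase that joins polymerase I transcription to processing of the transcript, measured 28.58, 34.13, 32.28, 39.24 and 26.31 FPKM in wild type 1 to 5 and 48.91, 41.5, 54.02, 36.88 and 50.83 FPKM in knockout 1 to 5. The groups overlapped only where wild type 4 exceeded knockout 4. Their means were 32.1 ± 5.03 and 46.4 ± 7.05 FPKM (SD, n = 5 and 5), a fold change of 0.52 (SE 0.14). Tcof1, the treacle protein that recruits the polymerase to ribosomal DNA, was at 3.29, 1.96, 3.08, 4.63 and 3.09 FPKM in wild type, against 5.71, 3.77, 6.69, 3.71 and 5.64 FPKM in knockout. Wild type 2 was the lowest and wild type 4 the highest of its group, above knockout 2 and knockout 4. The fold change of Tcof1 was 0.54 (SE 0.18). Mybbp1a, a nucleolar partner of MYB, had a fold change of 0.48 (SE 0.15) and Nolc1, a snoRNP chaperone of the nucleolus, one of 0.44 (SE 0.17). The catalytic subunits of the polymerase had fold changes of 0.37 (SE 0.15) for Polr1b and 0.17 (SE 0.11) for Polr1a. Polr1c, a subunit shared with polymerase III, had one of 0.16 (SE 0.13). Differences among the 7 genes were not tested.

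The box C/D particle is represented by Fbl, Nop56, Nop58 and Rrp9, with a median fold change of 0.48 and 2 calls. Fbl is fibrillarin, the methyltransferase of the particle. It measured 6.03, 6.67, 7.11, 8.25 and 6.92 FPKM in wild type, against 12.09, 10.41, 11.75, 8.4 and 9.64 FPKM in knockout. No wild-type value reached the lowest knockout value, that of knockout 4, but wild type 4 came close. The means were 7.0 ± 0.811 and 10.5 ± 1.52 FPKM (SD, n = 5 and 5), a fold change of 0.51 (SE 0.12). Nop56, a core scaffold protein of the particle, was at 16.95, 26.57, 16.95, 27.84 and 19.91 FPKM in wild type, against 36.65, 30.2, 38.24, 25.69 and 30.93 FPKM in knockout. Wild type 2 and wild type 4 both exceeded knockout 4, and the fold change was 0.57 (SE 0.16). Fbl and Nop56 share 0.218 and 0.224 of their 31-base sequences with other genes, so their levels are uncertain. Nop58, the partner of Nop56, had a fold change of 0.45 (SE 0.14) and Rrp9, which binds the U3 snoRNA, one of 0.27 (SE 0.16).

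The box H/ACA particle is represented by all of its core proteins, Dkc1, Nop10, Nhp2 and Gar1, with a median fold change of 0.42 and 1 call. On the log2(FPKM + 1) scale Nop10 had the highest fold change of the 45 genes. Its ratio of means (1.58) was below those of Rrp1b (1.60) and Tcof1 (1.59). Nop10 is a small protein that holds the catalytic subunit in place. It measured 26.36, 41.07, 39.11, 36.23 and 26.1 FPKM in wild type, against 57.76, 67.79, 43.49, 47.74 and 50.36 FPKM in knockout. The groups did not overlap, and for this gene knockout 3, not knockout 4, was the lowest knockout library. The means were 33.8 ± 7.10 and 53.4 ± 9.56 FPKM (SD, n = 5 and 5), a fold change of 0.65 (SE 0.16). Dkc1, dyskerin, the pseudouridine synthase itself and a gene on chromosome X, was at 11.87, 16.84, 12.19, 17.87 and 12.16 FPKM in wild type, against 26.09, 20.16, 19.56, 15.62 and 17.45 FPKM in knockout. Knockout 1 stood above all others and knockout 4 lay below wild type 2 and wild type 4, with a fold change of 0.45 (SE 0.16). Nhp2, the most abundant of the particle's transcripts, was at 72.43, 132.71, 94.16, 102.4 and 86.39 FPKM in wild type, against 141.43, 128.31, 103.87, 100.17 and 117.45 FPKM in knockout. Wild type 2 lay above every knockout library but 1, and the fold change was 0.29 (SE 0.16). Gar1, which binds dyskerin, had a fold change of 0.39 (SE 0.15).

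The small subunit processome, the assembly that forms on the nascent precursor, contributed 8 genes, with a median fold change of 0.40, all positive, and the calls Utp20, Heatr1 and Nop14. Heatr1, a large scaffold protein of the processome, measured 5.82, 7.88, 6.64, 7.91 and 5.95 FPKM in wild type, against 11.56, 8.8, 8.47, 8.49 and 10.67 FPKM in knockout. The groups did not overlap, although wild type 2 and wild type 4 came close to knockout 3 and knockout 4. The fold change was 0.43 (SE 0.12). Noc4l, which works with Nop14, was at 6.21, 3.83, 5.8, 8.4 and 5.65 FPKM in wild type, against 8.96, 7.02, 12.58, 6.58 and 10.28 FPKM in knockout. As with Tcof1, wild type 2 was the lowest and wild type 4 exceeded knockout 2 and knockout 4. The fold change of Noc4l was 0.53 (SE 0.19). Wdr43, the most abundant of the 8, was at 16.83, 23.95, 16.28, 21.44 and 16.34 FPKM in wild type, against 29.98, 24.86, 29.71, 20.16 and 24.27 FPKM in knockout, with knockout 4 below wild type 2 and wild type 4 and a fold change of 0.43 (SE 0.14). Utp18 had the lowest fold change of the role. It was at 8.26 ± 1.32 FPKM in wild type, against 8.74 ± 1.58 FPKM in knockout, a difference of 0.07 on the log2 scale (SE 0.14). The processome proteins Utp15, Utp20 and Nop14 and the RNA helicase Ddx10 had fold changes of 0.38, 0.38, 0.41 and 0.38.

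Late maturation and export of the small subunit is represented by Bysl, Pno1, Ltv1 and Rrp12, with a median fold change of 0.37 and 1 call. Ltv1, which helps the subunit leave the nucleus and mature, measured 26.41, 31.33, 28.42, 32.09 and 27.08 FPKM in wild type, against 44.65, 43.58, 34.23, 34.76 and 35.71 FPKM in knockout. The groups did not overlap, and knockout 1 and knockout 2 stood above the other knockout libraries. The means were 29.1 ± 2.53 and 38.6 ± 5.09 FPKM (SD, n = 5 and 5), a fold change of 0.39 (SE 0.11). Rrp12, an export factor, was at 5.3, 4.76, 6.94, 8.68 and 6.54 FPKM in wild type, against 9.64, 6.92, 13.99, 7.43 and 12.5 FPKM in knockout. Knockout 3 and knockout 5 were the highest, knockout 2 lay below wild type 3, both knockout 2 and knockout 4 lay below wild type 4, and the fold change was 0.55 (SE 0.20). Pno1, which binds the small subunit RNA near its end, and Bysl, bystin, had fold changes of 0.34 (SE 0.13) and 0.31 (SE 0.18).

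Large subunit assembly is the widest role, with 16 genes, 15 positive fold changes, a median of 0.41 and 6 calls. Ebna1bp2, an early assembly factor, measured 13.57, 17.45, 14.3, 19.62 and 13.26 FPKM in wild type, against 23.95, 24.72, 25.32, 20.16 and 23.12 FPKM in knockout. All knockout values lay above all wild-type values, with wild type 4 just below knockout 4. The means were 15.6 ± 2.78 and 23.5 ± 2.02 FPKM (SD, n = 5 and 5), a fold change of 0.57 (SE 0.12). Nifk, which binds the proliferation antigen Ki-67 and acts in large subunit maturation, was at 21.96, 40.39, 27.69, 35.69 and 23.49 FPKM in wild type, against 48.02, 46.28, 43.11, 37.45 and 43.15 FPKM in knockout. Here wild type 2, not wild type 4, was the library that exceeded knockout 4, and the fold change was 0.56 (SE 0.16). In the PeBoW complex, which is needed to process the large subunit RNA, Bop1 differed by 0.47 (SE 0.14), Wdr12 by 0.41 (SE 0.11) and Pes1 by 0.26 (SE 0.13), and differences among the 3 were not tested. Pes1 and Ddx18 share 0.348 and 0.655 of their sequence with other genes and are uncertain. The RNA methyltransferase Nop2 differed by 0.55 (SE 0.13) and the nucleolar GTPase Gnl3, known as nucleostemin, by 0.55 (SE 0.16). Noc3l and Noc2l, partners in moving the early particle through the nucleus, had fold changes of 0.11 (SE 0.12) and -0.05 (SE 0.13). Noc2l was at 20.2 ± 3.38 FPKM in wild type, against 19.4 ± 2.66 FPKM in knockout, and its fold change was 0.0226 without wild type 4. The role is completed by Rrs1 (0.15), which helps bring in the 5S particle, the RNA helicases Ddx56 (0.17) and Ddx18 (0.41), the GTPase Gnl2 (0.28), and Wdr74 (0.27), Nop16 (0.45) and Rrp1b (0.51).

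The nucleolar chaperones Npm1 and Ncl have a median fold change of 0.54, and Npm1 was called. Npm1, nucleophosmin, measured 129.34, 202.85, 160.25, 164.63 and 112.1 FPKM in wild type, against 265.61, 253.33, 239.26, 179.56 and 202.88 FPKM in knockout. Wild type 2 exceeded knockout 4 and lay just below knockout 5. The means were 154 ± 35.0 and 228 ± 35.9 FPKM (SD, n = 5 and 5), a fold change of 0.58 (SE 0.17), with the limit that Npm1 shares 0.294 of its sequence with other genes. Ncl, nucleolin, was at 47.89, 65.79, 45.82, 68.8 and 42.09 FPKM in wild type, against 85.8, 73.08, 97.28, 55.19 and 74.2 FPKM in knockout. Knockout 4 lay below wild type 2 and wild type 4, and the fold change was 0.51 (SE 0.18).

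**Figure D2:**
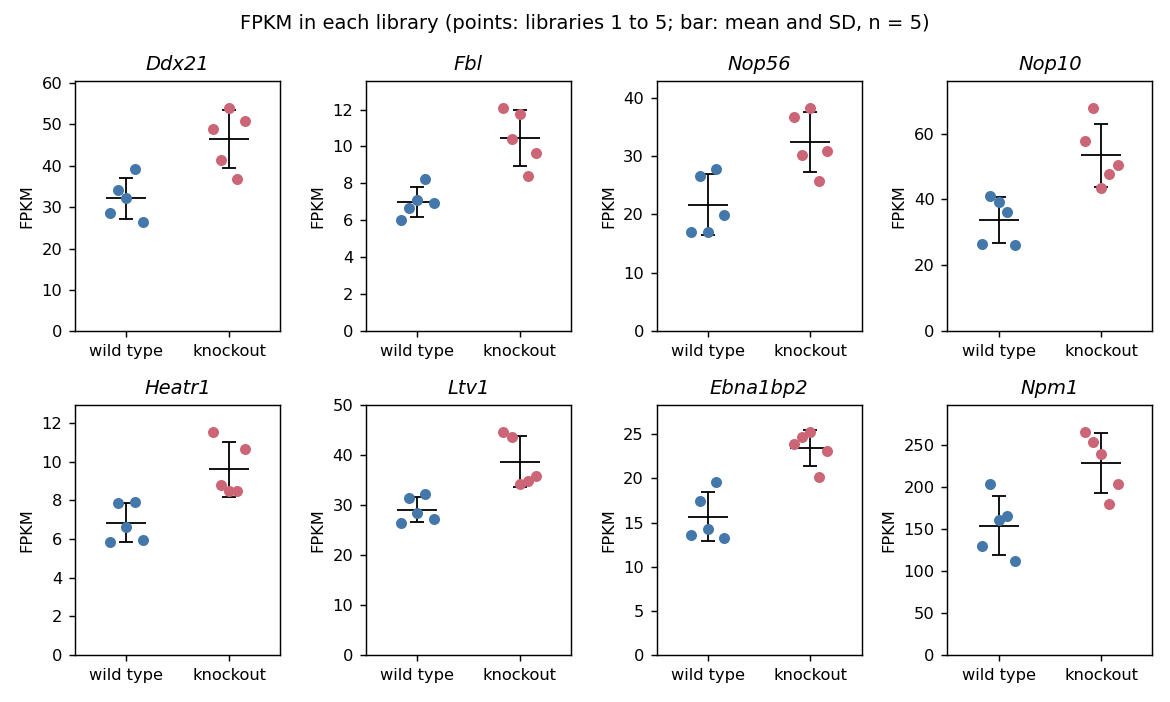
FPKM of 8 of the genes in each library (points), with the group mean and SD as a bar (n = 5 and 5), each panel starting at 0. Fbl, Nop10, Heatr1, Ltv1 and Ebna1bp2 show groups that do not overlap, while in Ddx21, Nop56 and Npm1 the lowest knockout library falls among the wild-type values.

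**Figure D3:**
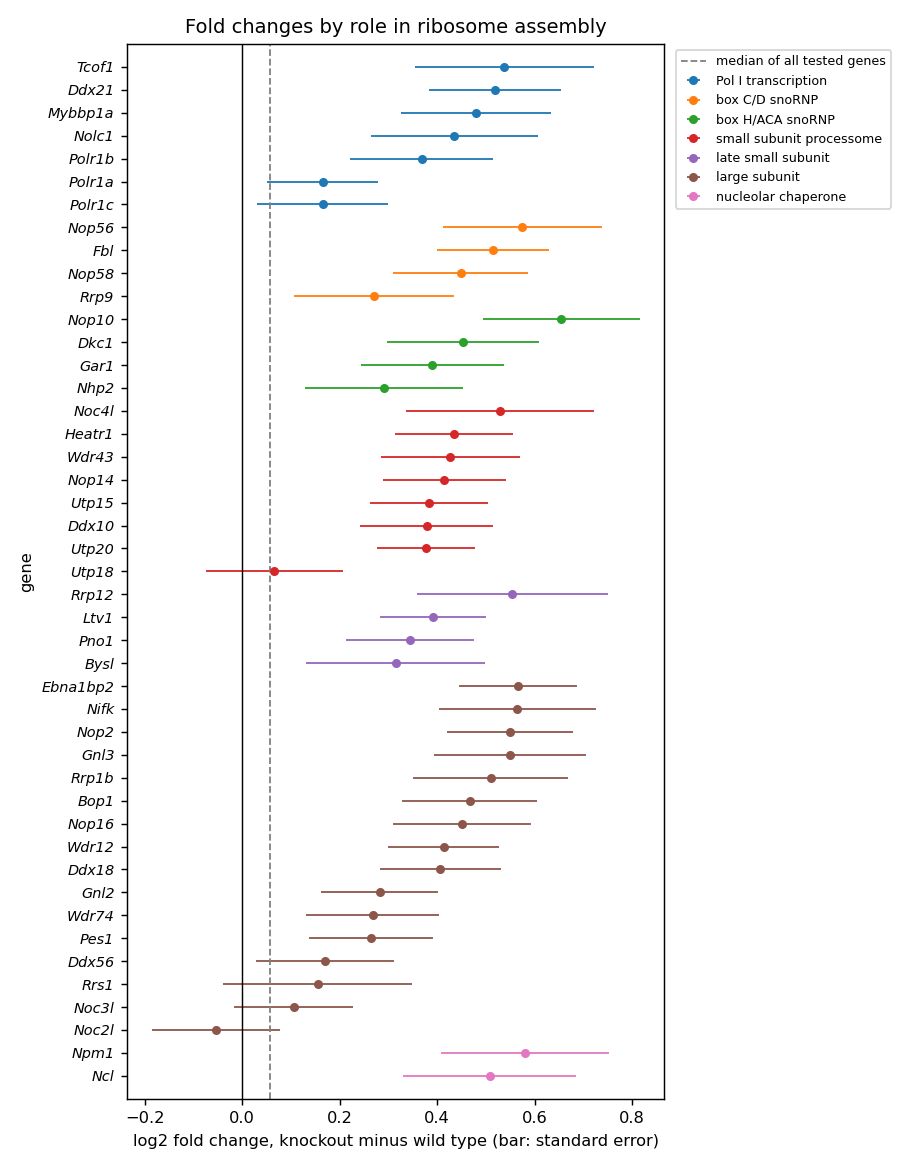
Fold change of each of the 45 genes on the log2(FPKM + 1) scale (points, with the standard error as a bar), coloured by role, beside the median of all tested genes at 0.06 (dashed line). Every role reaches above 0.4, and Noc2l is the only point below 0.

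Libraries of 1 group stood in much the same order across the genes. The mean log2(FPKM + 1) over the 45 genes was 3.673, 3.893, 3.741, 4.109 and 3.691 in wild type 1 to 5 and 4.361, 4.159, 4.371, 3.941 and 4.235 in knockout 1 to 5. Wild type 4 therefore lay above knockout 4, and did so in 35 of the 45 genes taken singly. Wild type 4 was the highest wild-type library for 34 of the 45 genes and wild type 2 for 10. Knockout 4 was the lowest knockout library for 35 genes, while knockout 1 and knockout 3 were the highest for 21 each. The mean over all tested genes spanned only 3.055 to 3.189 across the 10 libraries. Summed over the 45 genes, FPKM came to 894 ± 142 in wild type and 1215 ± 146 in knockout (SD, n = 5 and 5).

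After each gene's group mean was removed, the deviations of the 45 genes still ran together over the 10 libraries. The median Pearson correlation over the 990 pairs of these genes was 0.62, and 94.3% of pairs were positive. It was 0.527 between these genes and other biogenesis factors. Between the 45 genes and all other tested genes, those factors included, it was 0.117. Nop16 (mean correlation 0.723 with the other 44 genes), Utp18 (0.719) and Rrp9 (0.71) were the closest to the set, and Nop10 (0.25) and Noc4l (0.391) the farthest. Utp18, with a fold change of 0.07, was thus among the closest to the library levels. Nop10, with the highest fold change on the log2(FPKM + 1) scale, was the farthest from them. These correlations describe 10 libraries whose genes share depth and scaling, and no test was made of them.

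Genes of dividing cells were examined beside the set. The mean log2(FPKM + 1) over 18 proliferation genes was 1.721, 2.103, 2.957, 2.865 and 2.567 in wild type and 3.219, 2.676, 3.648, 3.06 and 3.379 in knockout, so that every knockout library but knockout 2 lay above all wild-type libraries. Fold changes were positive for 17 of the 18, with a median of 0.74, and 3 passed the test, all higher (Mcm5, Tyms and Rrm1). That is 16.7% of the 18, beside the background of 7.9% higher. Mki67, the proliferation antigen Ki-67, was at 11.7 ± 4.99 FPKM in wild type, against 16.8 ± 5.27 FPKM in knockout. The order of the libraries was not shared throughout, since knockout 2, with the lowest knockout proliferation mean, was above knockout 4 for the biogenesis genes. With the proliferation mean as a covariate the median fold change of the 45 genes was 0.26 and 40 stayed positive. In that fit limma called 0 of the 45, beside 204 higher and 166 lower over all tested genes. An unadjusted p under 0.05 was found in 9 of the 45. No background count is given at that threshold for that fit, so nothing is read from this number. The part of proliferation in the result was not tested further. In tissue RNA fewer cells of a type and less RNA per cell cannot be told apart. Basal cell markers summed to 3034 to 4926 FPKM in wild type, against 3552 to 5245 FPKM in knockout. Most of that sum is Krt5, Krt14 and Krt15, with fold changes of 0.40, 0.29 and 0.11. The other markers had negative fold changes: Trp63 (the gene of p63) -0.76, Col17a1 -0.81, Itga6 -0.18 and Itgb4 -0.22. Of the 7 in the list 2 were called lower, Trp63 and Col17a1, and 0 higher. That is 28.6% lower, beside the background of 4.96%. Wild type 4 and knockout 3 were the highest of their groups in that sum, while knockout 1, the highest knockout library for as many biogenesis genes as knockout 3, was at 4210 FPKM, below knockout 5 as well.

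**Figure D4:**
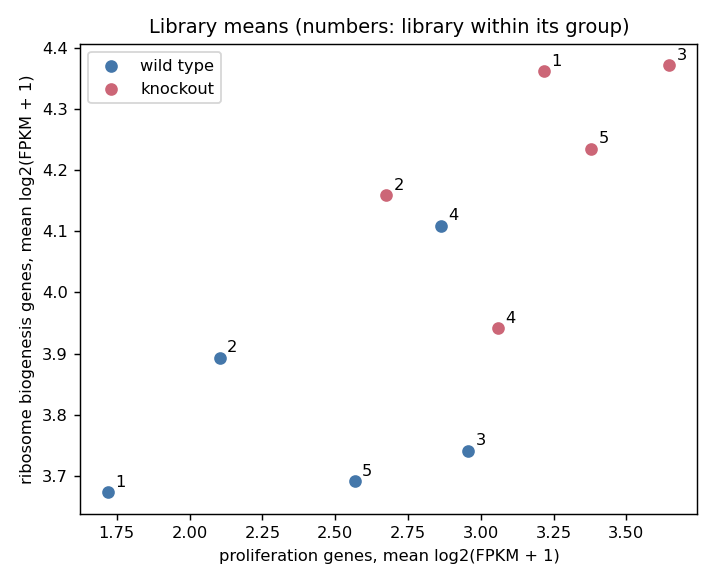
Mean log2(FPKM + 1) of the 45 ribosome biogenesis genes (vertical axis) against that of 18 proliferation genes (horizontal axis) in each library, numbered within its group. Wild type 4 (4.109) lies above knockout 4 (3.941), and the other 4 knockout libraries lie above every wild-type library on the vertical axis.

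Other factors of the same pathway, none of them among the 45, were examined next. They were listed by function, but with earlier results of these data known. Their levels ran together with those of the 45 genes (median correlation 0.527), so their counts are no independent support. Of 146 such genes 144 were tested, of which 26 rose, 1 fell and 117 did not pass (limma, Benjamini-Hochberg adjusted over all tested genes), beside the background of 7.9% higher and 4.96% lower. That is 18.1% and 0.694% of those tested. Fold changes were positive in 132 of the 144, with a median of 0.28. The count of 26 was 3 without wild type 1, 11 without wild type 3, 2 without wild type 5, 5 without knockout 1, 12 without knockout 2, 7 without knockout 3 and 6 without knockout 5. Counts over all tested genes without each of these libraries are given above. The count of 26 was 15 after scaling by median ratios or quantile normalization, 4 with no filter and 47 with sample quality weights. Over all tested genes those settings gave 651, 685, 511 and 1390 higher. With the proliferation mean as a covariate the count of 26 was 0, beside 204 higher over all tested genes. At an unadjusted p under 0.05, without a background count for that fit, 21 were higher, and nothing is read from this number.

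Xrn2, the nuclear exonuclease that trims the spacers cut from the precursor, had the largest fold change of the 144. It measured 18.15, 20.94, 18.79, 24 and 18.77 FPKM in wild type, against 37.2, 29.85, 44.42, 31.31 and 39.37 FPKM in knockout. The groups were well apart, with knockout 2 and knockout 4 the lowest of theirs. Xrn2 rose from 20.1 ± 2.41 to 36.4 ± 5.97 FPKM (SD, n = 5 and 5), a fold change of 0.82 (SE 0.13; limma adjusted p = 0.00148), and kept its call without any single library. Of 16 tested genes of the exosome and spacer cleavage 4 rose (25%, background 7.9%). Among them was Dis3, a catalytic subunit of the exosome (0.42, SE 0.11, limma adjusted p = 0.0304).

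Factors of the large subunit beyond the 45 had 11 of 51 higher (21.6%, background 7.9%) and 0 lower, with a median fold change of 0.32. Tex10, a member of the Rix1 complex, measured 5.37, 6.45, 6.02, 6.68 and 5.51 FPKM in wild type, against 10.6, 9.27, 7.63, 8.71 and 8.91 FPKM in knockout. All knockout values lay above all wild-type values, and the fold change was 0.51 (SE 0.10; limma adjusted p = 0.00723). Rpf2, which brings the 5S particle into the subunit, rose from 10.6 ± 2.44 to 16.1 ± 1.44 FPKM (0.57, SE 0.14; limma adjusted p = 0.0186). Among its relatives of the Brix domain family, Brix1 rose from 17.8 ± 2.83 to 25.3 ± 2.46 FPKM (limma adjusted p = 0.0197) and Rpf1 from 8.16 ± 0.925 to 11.2 ± 0.960 FPKM (limma adjusted p = 0.0213). Of the same family, Ppan (0.28, SE 0.16; limma adjusted p = 0.255) and Imp4 (-0.20, SE 0.10; limma adjusted p = 0.192) did not pass the test. Ccdc86 rose from 1.86 ± 0.405 to 3.23 ± 0.768 FPKM (limma adjusted p = 0.0264) but shares 0.201 of its sequence with other genes and is uncertain.

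Among 46 genes listed as other small subunit factors, a list that holds Ppan too, 6 rose (13%, background 7.9%) and 0 fell, with a median of 0.23. They include Emg1, the methyltransferase of a modified base of the small subunit RNA (0.51, SE 0.13; limma adjusted p = 0.0211), Wdr36, a processome protein (0.49, SE 0.13; limma adjusted p = 0.0272), and Aatf (0.51, SE 0.14; limma adjusted p = 0.0305). Of 13 tested genes listed as snoRNP proteins and assembly factors 2 rose (15.4%, background 7.9%) and 0 fell. That list also holds Mphosph10, Imp3, Imp4 and Nop9. Ruvbl2, an ATPase of the R2TP assembly complex, had its highest fold change (0.60, SE 0.17, limma adjusted p = 0.0382).

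Of 18 tested genes listed as other polymerase I factors, Nop53 among them, 3 rose and 1 fell, with a median of 0.17. That is 16.7% and 5.56%, beside the background of 7.9% higher and 4.96% lower. The share lower is near its background. Rrn3, which makes the polymerase competent to start, measured 17.13, 15.75, 16.83, 17.23 and 15.83 FPKM in wild type, against 21.98, 19.64, 22.57, 19.37 and 22.61 FPKM in knockout, with a narrow spread in both groups and no overlap (0.34, SE 0.09; limma adjusted p = 0.0245). Taf1b, a subunit of the promoter selectivity factor SL1, rose from 5.42 ± 0.540 to 8.60 ± 2.28 FPKM (limma adjusted p = 0.0345). Cd3eap, a subunit of the polymerase, was the 1 gene that fell. It measured 14.02, 14.92, 13.17, 17.51 and 13.45 FPKM in wild type, against 11.52, 11.23, 10.79, 8.86 and 11.27 FPKM in knockout, with no overlap (-0.41, SE 0.11; limma adjusted p = 0.0267), and lost the call without wild type 1, knockout 3 or knockout 4. Exons of Cd3eap overlap those of Ercc1, and among the named factors that rose, exons of Tex10 overlap Invs, those of Emg1 Lpcat3, those of Dis3 Pibf1, those of Wdr36 4930455D15Rik, those of Ruvbl2 Gys1 and Lhb, and those of Ccdc86 Ptgdr2. No source used here gives the strand setting, so reads of such pairs cannot be told apart. Of the 14 other factors named here, Xrn2 and Tex10 were called without each library in turn. The remaining 12 lost the call without 2 to 7 of the 10 libraries, most often wild type 1 or wild type 5 (11 each), with highest adjusted p-values (limma) of 0.0515 to 0.0968.

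**Figure D5:**
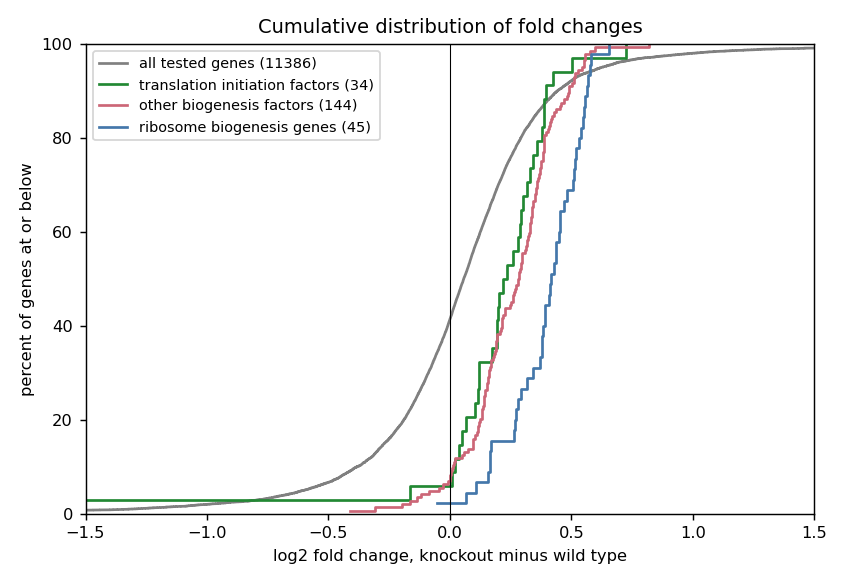
Cumulative share of genes at or below each fold change, for all 11386 tested genes, 34 translation initiation factors, 144 other biogenesis factors and the 45 ribosome biogenesis genes. The horizontal axis ends at 1.5 on either side of 0, and the curves cross the middle at 0.06, 0.23, 0.28 and 0.41.

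The known regulators of the pathway were examined as well. Of 10 tested genes of the MYC network 0 passed the limma test, beside the background of 7.9% higher and 4.96% lower. An unadjusted p under 0.05 (limma) was found in 0 of the 10, where 2173 of the 11386 tested genes were higher and 1214 lower. With only 10 genes, nothing is read from these counts. Myc measured 28.38, 15.43, 21.99, 42.3 and 29.74 FPKM in wild type, against 27.63, 29.98, 39.86, 28.1 and 30.06 FPKM in knockout. Its highest value of all was in wild type 4, the wild-type library highest for the biogenesis genes by mean. Its lowest was in wild type 2, the next highest for them. Among the knockout libraries Myc was highest in knockout 3 and lowest in knockout 1, which had the highest and next-highest mean (4.371 and 4.361). The knockout values of Myc lay within the wild-type range. The fold change was 0.23 (SE 0.22; limma adjusted p = 0.517), so a difference was not detectable at this spread.

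Of 15 regulators and targets of mTORC1 2 rose and 1 fell, with a median of 0.02. That is 13.3% and 6.67%, beside the background of 7.9% higher and 4.96% lower. Eif4ebp1, the repressor of cap-dependent translation that mTORC1 inactivates, measured 8.69, 11.88, 9.8, 10.15 and 7.62 FPKM in wild type, against 18.05, 18.63, 18.94, 14.58 and 13.27 FPKM in knockout, with no overlap (0.74, SE 0.13; limma adjusted p = 0.00441). Sesn2, a leucine sensor that restrains mTORC1, rose from 4.46 ± 0.938 to 7.60 ± 1.06 FPKM (0.67, SE 0.14; limma adjusted p = 0.0107). Deptor, a protein that binds and inhibits the kinase, fell from 1.5 ± 0.269 to 0.872 ± 0.128 FPKM (-0.41, SE 0.11, limma adjusted p = 0.0295). Its exons overlap those of Gm9920. Deptor ran from 1.21 to 1.78 FPKM in wild type and from 0.73 to 1.08 FPKM in knockout. It thus passed the filter of 1 FPKM through wild type, and its level is near that floor. Mtor itself was at 4.14 ± 0.732 and 4.06 ± 0.675 FPKM. Deptor lost its call without 7 of the 10 libraries, with adjusted p-values (limma) up to 0.0702, and Eif4ebp1 and Sesn2 kept theirs without each.

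Translation initiation factors, the next step after assembly, had 32 of 34 positive fold changes with a median of 0.23. Of the 34, 3 rose and 1 fell. That is 8.82% and 2.94%, near the background of 7.9% higher and 4.96% lower over all tested genes. Eif1a, which scans for the start codon with the small subunit, measured 17.31, 28.35, 20.18, 21.51 and 15.57 FPKM in wild type, against 34.65, 36.62, 32.14, 31.31 and 35.45 FPKM in knockout, with no overlap (0.72, SE 0.14; limma adjusted p = 0.00619). Eif4e, the cap-binding protein, rose from 17.1 ± 1.53 to 22.7 ± 2.64 FPKM (0.39, SE 0.11; limma adjusted p = 0.0328), a call lost without 6 of the 10 libraries, with adjusted p-values (limma) up to 0.0834. Eif3j1, a loosely attached subunit of eIF3, measured 4.36, 5.13, 4.42, 5.32 and 3.74 FPKM in wild type, against 3.53, 0.41, 0.3, 0.32 and 0.3 FPKM in knockout. Knockout 1 was close to wild type and the other 4 near 0 (-1.71, SE 0.31; limma adjusted p = 0.00515). Eif3j1 passed the filter of 1 FPKM through wild type, and every knockout value but that of knockout 1 lies below that floor. It also shares 0.536 of its sequence with other genes and its exons overlap those of Spg11. The value is therefore uncertain, and nothing is read from its call.

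Features other than expression were compared with all tested genes as a description. Of the 45 genes 6 hold snoRNA genes within their own bounds, 13.3% against 2.01% of 9941 tested protein-coding genes. These are Nop56 with 5, Nop58 with 4, Wdr43, Gnl3 and Ncl with 3 each and Dkc1 with 1. The 45 genes lie on 17 chromosomes, with 7 on chromosome 11.

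Promoters were searched because the genes vary together, with windows of 250 bases before to 50 after the start taken from RefSeq (build GRCm38.p6). For 38 of the 45 genes 42 promoters were found, and the others are Fbl, Npm1, Rrp12, Rrs1, Gnl2, Bop1 and Tcof1. The E-box core CACGTG, the letters MYC and many related factors bind, was present in 8 of the 42, or 19%, against 10.7% of promoters of tested genes and 7.15% of all 32851 promoters. The GC box GGGCGG was in 71.4%, 64.3% and 35.7%, the letters CCAAT in 35.7%, 37.8% and 37.4%, and CTCGCGAG in 0%, 2.04% and 0.919%. All were searched on both strands, and none of the letters contains another of the motifs. The 8 genes with an E-box had a median fold change of 0.39 and the 30 without one 0.41.

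The 8 E-boxes are shown with their neighbouring bases, 5′ to 3′ on the strand of the gene, so that they can be set against the values above; capitals mark CACGTG.
Mybbp1a, chr11:72441347-72441376 plus strand: aagtgactgtcttctgagccCACGTGtttg
Utp18, chr11:93885769-93885798 minus strand: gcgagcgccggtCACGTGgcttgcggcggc
Utp20, chr10:88826765-88826794 minus strand: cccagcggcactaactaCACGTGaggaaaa
Wdr43, chr17:71616220-71616249 plus strand: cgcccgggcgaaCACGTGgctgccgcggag
Ltv1, chr10:13193092-13193121 minus strand: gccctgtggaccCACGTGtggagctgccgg
Pno1, chr11:17211540-17211569 minus strand: tgcgctgtacaaccacgCACGTGttcctct
Nop2, chr6:125131811-125131840 plus strand: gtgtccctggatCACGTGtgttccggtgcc
Pes1, chr11:3963965-3963994 plus strand: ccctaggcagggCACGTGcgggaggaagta
The E-boxes of Utp18 and Nop2 lie before the start and those of the other 6 after it. Among the 8, fold changes ran from 0.07 for Utp18 to 0.55 for Nop2. A match describes the sequence and says nothing about binding.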

How the data were processed

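The deposited table holds FPKM to 2 decimals for 56691 Ensembl genes, made by the authors. The submitters' processing notes name the build mm9 and the tools HTSeq 0.6.1, HISAT2 2.0.1 and cutadapt without their roles. For the annotation, strand setting and scaling total: not given in the sources used here. Count models were not used, as FPKM are no counts. Depth came from genes of 1 exon block up to 1200 bases long, as the fragment total at which their FPKM become whole numbers of fragments: 97.7% to 98.4% of values came within 0.01 fragments (plus rounding) of a whole number, against 9.35% to 11.2% by the width of that tolerance.

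Values were analysed as log2(FPKM + 1) for 11386 genes reaching 1 FPKM in 5 or more libraries, with limma 3.58.1 in R 4.3.3, genotype as the only term, robust estimation with a trend, and adjustment by Benjamini-Hochberg at 0.05. The script was tested on simulated data. Figures and reference features used Python 3.11.15, numpy 2.4.6, pandas 2.3.3 and matplotlib 3.10.9. Members and lists were chosen with earlier results of these data known. Within each role, values in every library are given for the 2 members with the largest absolute fold change and the most abundant one. Of other factors, 12 past the threshold by smallest p and the largest change of each list are named, together with Myc and up to 3 genes past the threshold in each list of regulators and initiation factors. Noc2l, Utp18, Mtor, Mki67 and genes given in counts or by fold change alone were chosen after their values were seen.

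Genes sharing at least 0.2 of their 31-base sequences with another gene (GENCODE M21, GRCm38) are called uncertain: 5 of the 45. As that build is not mm9, positions are given only for promoters, on GRCm38.p6.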

Additional observations from a re-analysis of the deposited data

Results flagged for a closer look

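Of 132 groups of 5 libraries examined, 9 had a highest or lowest value whose gap to the next, divided by the range of the group, exceeded Dixon's critical value of 0.71; chance gives about 1 in 20. Wild type 4 was far above its group in Nolc1 (23.26 FPKM, next 16.29), Gar1 (15.42, next 10.95), Rrs1 (25.99, next 17.15) and Ccdc86 (2.58, next 1.75). Knockout 4 was far below its group in Rpf1 (9.48 FPKM, next 11.48) and Cd3eap (8.86, next 10.79). Knockout 1 was far above its group in Noc3l (9.26 FPKM, next 7.41) and Eif3j1 (3.53, next 0.41), and knockout 3 in Myc (39.86, next 30.06).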

How the results depend on the processing

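The median fold change of the 45 genes stayed between 0.30 and 0.48 under every alternative except the proliferation covariate (0.26). Within libraries above 5 FPKM of Dbp, a clock output gene, it was 0.39 (3 wild type, 2 knockout) and below 0.49 (2 and 3), a split chosen after seeing the data. Counts moved more, and the cause was not tested. The counts given in the order of the 45 genes higher (15), other factors higher (26) and other factors lower (1) were 3, 4 and 0 with no filter, 8, 15 and 2 with quantile normalization, 23, 47 and 2 with sample quality weights, and 0, 0 and 0 with the proliferation covariate. Median-ratio scaling gave 15 other factors higher and 2 lower, and a clock covariate 0 lower. Leaving out 1 library gave 2 to 25, 2 to 36 and 0 to 1. With the replicate block these counts were 5, 9 and 0, beside 773 higher and 551 lower over all tested genes. Deviations of same-numbered libraries correlated at 0.427 for number 2, and at -0.0743, 0.0719, -0.313 and 0.105 for numbers 1, 3, 4 and 5. Only 1 of 5 numbers had its closest partner in its own number. The labels name no pairing, and these correlations cannot tell whether same-numbered samples were handled together. Over all tested genes (900 higher, 565 lower) the counts were 511 higher with no filter, 329 lower with a filter at 5 FPKM, 1390 higher with quality weights, 204 higher and 166 lower with the proliferation covariate, and 436 to 1091 higher and 357 to 679 lower without 1 library. Signs turned for Noc2l with the clock covariate (0.0945) and without wild type 4 (0.0226; range -0.137 to 0.0226 without 1 library), and with the proliferation covariate for Utp18 (-0.0387), Bysl (-0.0852), Ddx56 (-0.0675), Rrs1 (-0.238) and Myc (-0.0202). FPKM from 5 libraries a group limit the precision, and intervals of single libraries are not given.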
